A study of Mus musculus with 29 samples.

Results

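The transcripts of 10 immediate early genes, *Fos*, *Fosb*, *Fosl2*, *Jun*, *Junb*, *Jund*, *Egr1*, *Ier2*, *Nr4a1* and *Atf3*, were followed across 15 RNA-seq libraries of flow-sorted mouse retinal neurons. The genes were chosen by name, with earlier results of these data known. All 10 were among the 24062 genes of the expression table and among the 14024 that passed a filter on low counts. The question was whether their levels differed between bipolar cells that went through the sorter in 1 round and those that went through it in 2. Bipolar cells are the interneurons that carry signals from photoreceptors to ganglion cells, ON types responding to light increments and OFF types to light decrements.

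Each population had 3 libraries. All bipolar cells (pan-BC) came from *Otx2*-GFP+/- mice at postnatal days 47, 44 and 44 whose GFP cassette sits at the endogenous *Otx2* locus and is bright in bipolar cells and weak in photoreceptors. ON bipolar cells (ON-BC) and OFF bipolar cells (OFF-BC) came from *Otx2*-GFP+/-; *Grm6*-YFP+/+ mice at days 43, 48 and 42, where the *Grm6* promoter drives YFP in ON cells. Cells of intermediate YFP, likely the ON type BC5D, fell in neither gate. Rods came from *Nrl*-eGFP mice and blue cones from *Nrl*-eGFP;NrlKO mice, both at day 56 and from previous work of these authors, and the *Nrl*-deficient photoreceptors stand in for blue cones. Pan-BC, ON-BC, rods and blue cones were single-sorted. OFF-BC alone among the RNA-seq populations were double-sorted, the cells being passed through the sorter again at once to remove weakly fluorescent photoreceptors. The number of sorts and OFF identity therefore cannot be told apart in these libraries, and pan-BC, which hold ON and OFF cells together, were the nearest single-sorted population that contains OFF cells. All retinas were dissociated with papain before sorting. Bulk libraries do not separate fewer cells that express a gene from less RNA per cell.

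Counted reads were 12329548 to 26266746 per RNA-seq library (median 15569580). Values are normalized counts, which are reads divided by 1 size factor per library. The labels do not say whether replicates came from separate animals, so p-values measure the spread between these libraries. *Nrl* checked the photoreceptor labels, with 11476 to 16599 normalized counts in rods and 485.5 to 764.1 in blue cones. *Grm6*, which marks ON cells, had 13260 to 13835 normalized counts in ON-BC against 64.88 to 592.6 in OFF-BC.

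Immediate early genes are transcribed within minutes of a stimulus, without new protein synthesis, from promoters that are already bound by factors such as SRF and CREB. Their transcripts are short-lived, so that levels follow recent calcium and MAP kinase signaling. In neurons they are widely used as a record of recent activity, and they are also known to be induced by tissue dissociation and by cell stress. FOS proteins (*Fos*, *Fosb*, *Fosl2*) pair with JUN proteins (*Jun*, *Junb*, *Jund*) to form the AP-1 transcription factor. *Egr1* encodes a zinc finger factor, *Nr4a1* an orphan nuclear receptor, *Atf3* a stress-responsive bZIP factor, and *Ier2* a small nuclear protein.

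The promoters of several members are shown because these elements are what an inducing signal acts on, and because the chromatin data below were read at the same positions. They are RefSeq promoters of GRCm38.p6, in which 8 of the 10 members were matched (all but *Egr1* and *Ier2*), each printed on the strand of its gene. Capitals mark matches to the CRE core TGACG on either strand (CGTCA on the printed strand), to the CArG box bound by SRF, and in *Jun* to TGACATCA. The *Fos* stretch is chr12:85473540-85473839 (+ strand), positions -350 to -51 from the start, and *Fosb* is chr7:19310086-19310385 (- strand), positions -340 to -41. *Junb* is chr8:84978749-84978898 (- strand) and *Jun* is chr4:95052223-95052372 (- strand), each the 150 bp before the start. *Nr4a1* is chr15:101266596-101266845 (+ strand), the 250 bp before the start.
Fos: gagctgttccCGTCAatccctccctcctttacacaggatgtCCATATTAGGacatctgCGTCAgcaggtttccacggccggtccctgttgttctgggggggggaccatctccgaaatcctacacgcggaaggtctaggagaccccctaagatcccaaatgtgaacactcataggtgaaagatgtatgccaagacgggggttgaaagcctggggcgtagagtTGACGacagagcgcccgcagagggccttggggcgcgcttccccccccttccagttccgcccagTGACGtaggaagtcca
Fosb: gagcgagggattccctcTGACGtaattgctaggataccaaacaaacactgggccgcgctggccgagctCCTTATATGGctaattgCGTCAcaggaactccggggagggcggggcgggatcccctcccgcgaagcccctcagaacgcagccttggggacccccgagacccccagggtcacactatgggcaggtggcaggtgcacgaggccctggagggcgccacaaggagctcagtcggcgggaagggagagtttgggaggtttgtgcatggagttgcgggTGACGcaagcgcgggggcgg
Junb: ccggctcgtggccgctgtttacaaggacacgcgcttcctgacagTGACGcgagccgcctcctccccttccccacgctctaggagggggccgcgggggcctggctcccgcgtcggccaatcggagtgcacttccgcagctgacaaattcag
Nr4a1: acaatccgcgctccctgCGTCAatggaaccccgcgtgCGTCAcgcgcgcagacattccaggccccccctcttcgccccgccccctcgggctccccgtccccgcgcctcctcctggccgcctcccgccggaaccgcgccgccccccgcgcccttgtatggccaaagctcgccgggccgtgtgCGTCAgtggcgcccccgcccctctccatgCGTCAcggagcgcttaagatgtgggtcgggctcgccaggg
Jun: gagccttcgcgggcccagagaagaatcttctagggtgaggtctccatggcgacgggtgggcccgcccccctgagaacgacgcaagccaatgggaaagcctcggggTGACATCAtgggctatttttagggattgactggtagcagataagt

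Within 400 bp upstream, the CRE core was found in 6 of these 8 members (*Fos*, *Fosb*, *Jun*, *Junb*, *Nr4a1* and *Atf3*) and at 25% of 31603 RefSeq starts. *Fos* and *Nr4a1* each held 4 copies of it, those of *Fos* beginning at positions -340, -292, -129 and -66 from the start and those of *Nr4a1* at -233, -213, -69 and -40. The CArG box was found in *Fos* at -309 to -300 and in *Fosb* at -272 to -263, against 2.11% of all starts. TGACATCA was found in *Jun* at -45 to -38 and at 3.4% of starts. The full CRE TGACGTCA, which contains the core, and the AP-1 site TGANTCA were found in 0 of the 8 members, against 2.13% and 9.67% of starts. TATAAA lay at -33 in *Fos* and at -262 in *Nr4a1*, and at 17.9% of starts. Both strands were searched in each case, and a match is a run of letters and not a measured binding site.

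*Nr4a1*, *Fosl2*, *Fos* and *Junb*, 4 of the 10 genes, were called lower in double-sorted OFF-BC than in the mean of single-sorted pan-BC and ON-BC, and 0 were called higher. *Fosl2* had next to no reads outside pan-BC and ON-BC, so it could be called in this direction only and does not bear on the count, which is 3 of the other 9 without it. A call needed an adjusted p below 0.05 in limma's treat test against a log2 fold change of 1. Of all 14024 genes tested, 5.87% were called in either direction and 3.27% were called lower. The median log2 difference of the 10 members was -1.68, against 0.013 over all genes. Tested against no change, 8 members differed, 7 lower and *Jun* higher, where 28.4% of all genes did. All 3 OFF-BC libraries lay below all 6 single-sorted bipolar libraries for 6 members (*Fos*, *Fosl2*, *Junb*, *Egr1*, *Ier2* and *Nr4a1*), an arrangement found at 13.2% of all genes. *Fosl2* is also in the median of the 10, the 7 lower and these 6, and under the same limit it does not bear on them.

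**Figure D1:**
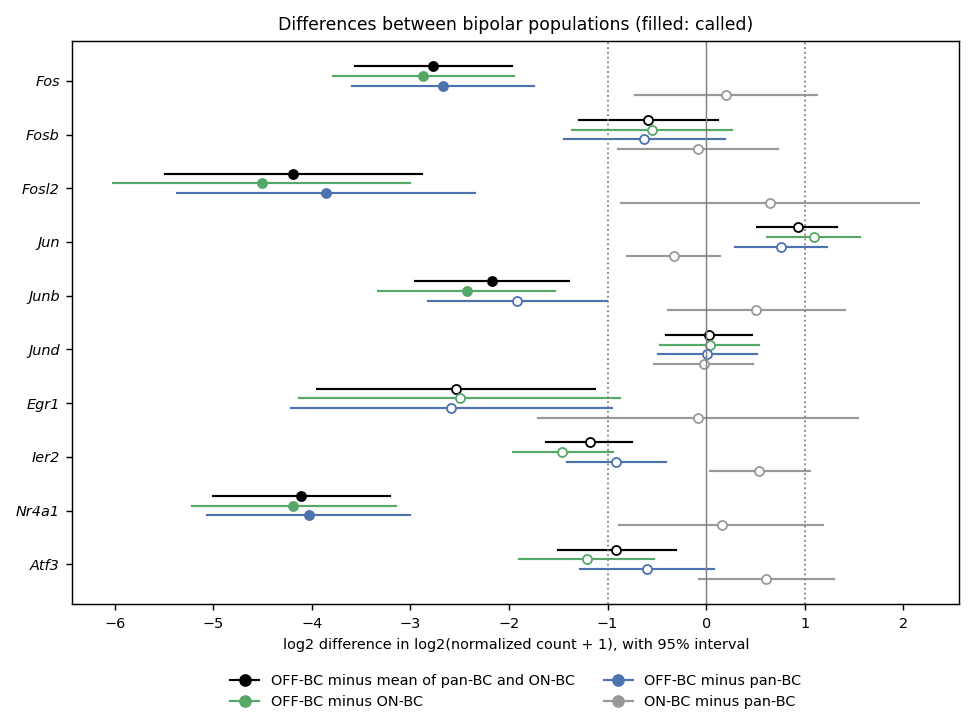
Differences between bipolar populations for each of the 10 genes, on the x axis as the log2 difference in log2(normalized count + 1), with points for the limma estimate and lines for the 95% interval. Filled points were called against a log2 fold change of 1 (dotted lines), and only *Nr4a1*, *Fosl2*, *Fos* and *Junb* have any, all to the left of -1.

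The OFF-BC values were set against each single-sorted population as well. Against ON-BC, the same 4 members were called lower and 0 higher, where 6.55% of all genes were called, and 8 passed limma's test against no change, where 27% of all genes did. Against pan-BC, *Nr4a1*, *Fosl2* and *Fos* were called lower, where 3.37% of all genes were called, and 7 passed the test against no change, where 20.8% did. *Fosl2* is subject to the same limit in both. These contrasts share the OFF-BC libraries with each other and with the pooled one. Between the single-sorted populations, ON-BC and pan-BC, 0 of 10 members were called in limma's treat test, and 0 passed either limma's or edgeR's test against no change (1.06% of all genes were called, and 6.08% passed limma's test against no change). The 95% intervals of that difference were wide for the members that varied most, from -1.71 to 1.54 for *Egr1* and from -0.88 to 1.19 for *Nr4a1*, so differences within them were not detectable with 3 libraries a group.

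*Fos* (chr12:85473890-85477274, + strand, 4 exons) encodes the founding AP-1 subunit. It had 2296, 1241 and 2243 normalized counts in pan-BC, 895, 5116 and 2118 in ON-BC, and 318.5, 258 and 300.1 in OFF-BC. The 3 OFF-BC libraries were close together and below every single-sorted bipolar library, while ON-BC spanned a wide range. The log2 difference was -2.77 (SE 0.38, limma adjusted p = 0.0031). It was -2.87 (SE 0.43, adjusted p = 0.0057) against ON-BC and -2.67 (SE 0.43, adjusted p = 0.024) against pan-BC, and this last call was lost in 5 of 6 fits without 1 library: pan-BC replicate 1 (adjusted p = 0.12) or 3 (0.11), or OFF-BC replicate 1 (0.068), 2 (0.099) or 3 (0.055).

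*Fosl2* (chr5:32136472-32157840, + strand) encodes FRA-2, a FOS protein that lacks the strong activation domain of c-FOS. It had 11.7, 24.2 and 41.6 normalized counts in pan-BC, 22.7, 24.5 and 86.2 in ON-BC, and 1.12, 0 and 1.10 in OFF-BC. In reads this was 2 over the 3 OFF-BC libraries against 200 over the 6 single-sorted ones. The normalized level was 46.1 times higher in the single-sorted libraries, with an exact 95% interval of 12.6 to 383 that covers counting error only. The log2 difference was -4.19 (SE 0.62, limma adjusted p = 0.0014), a value that depends on the 1 added before the logarithm. *Fosl2* passed the filter through pan-BC and ON-BC alone, so it could not have been tested without being higher there.

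*Fosb* (chr7:19302696-19310045, - strand), whose protein and truncated splice form are known for long-lasting effects in neurons, was low in all bipolar cells. Its normalized counts were 20.2, 18.2 and 20.8 in pan-BC, 9.29, 26.5 and 25.7 in ON-BC, and 7.82, 16.8 and 14.3 in OFF-BC. The ranges overlapped, and the log2 difference of -0.59 (SE 0.33, 95% interval -1.29 to 0.12) was not called. Counts were made per gene and do not separate its splice forms.

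**Figure D2:**
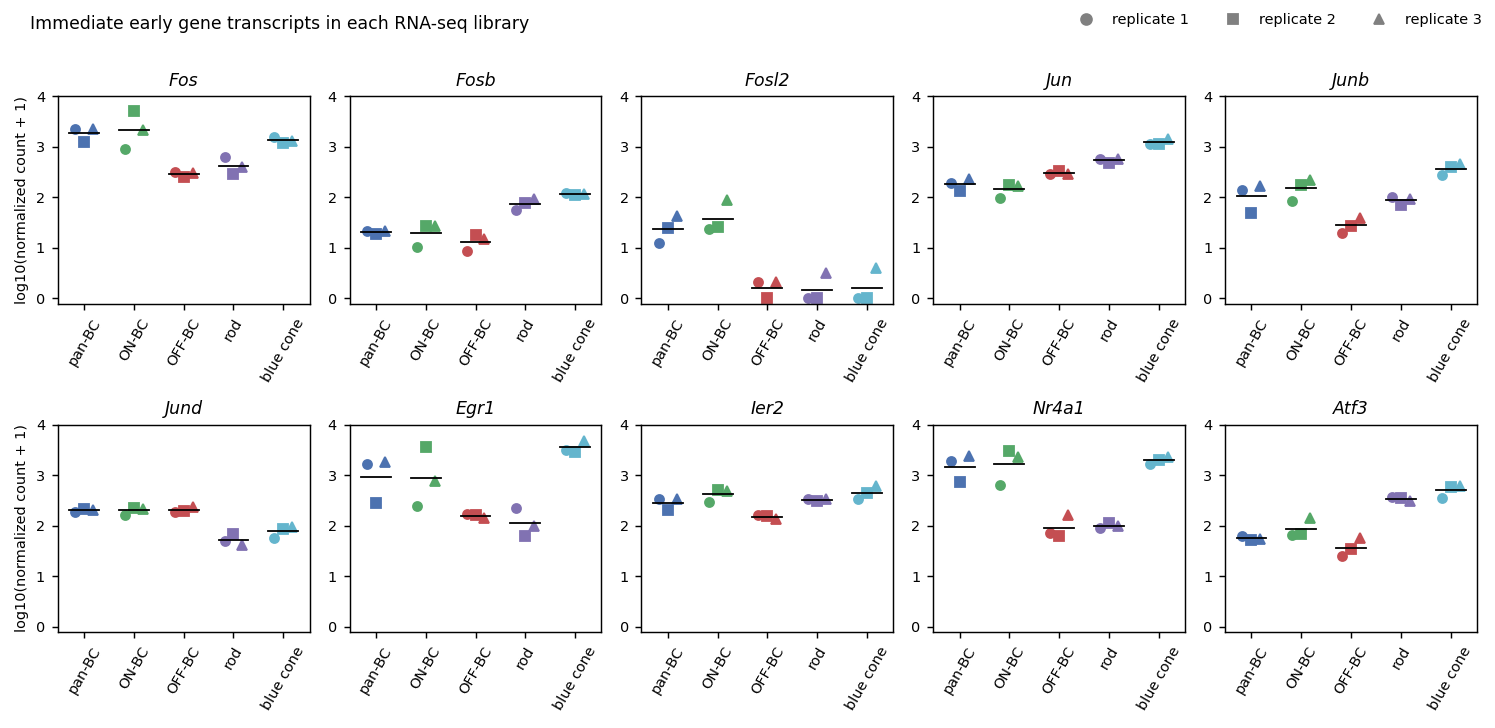
Normalized counts of the 10 genes in each of the 15 libraries, on the y axis as log10(normalized count + 1), with populations along the x axis, a symbol for each replicate and a line at the mean of the 3 log values. OFF-BC lie below pan-BC and ON-BC for *Fos*, *Fosl2*, *Junb*, *Egr1*, *Ier2* and *Nr4a1*, above them for *Jun*, and level with them for *Jund*.

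The JUN family did not move as one. *Junb* (chr8:84976909-84978748, - strand, 1 exon) had 139, 48.4 and 168 normalized counts in pan-BC, 85.6, 177 and 219 in ON-BC, and 19.0, 26.4 and 38.6 in OFF-BC. Its highest OFF-BC library lay below its lowest single-sorted one, pan-BC replicate 2. The log2 difference was -2.17 (SE 0.37, limma adjusted p = 0.049). This call stood at the threshold and was lost in 11 of the alternatives, among them a fit of the bipolar libraries only (adjusted p = 0.088), and it was not made against pan-BC (-1.92, SE 0.43, adjusted p = 0.4).

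*Jun* (chr4:95049036-95052222, - strand, 1 exon) encodes c-JUN, the classical partner of c-FOS in AP-1. Its normalized counts were 190, 132 and 230 in pan-BC, 96.99, 178 and 168 in ON-BC, and 286, 336 and 296 in OFF-BC. Here every OFF-BC library lay above every single-sorted bipolar library, the opposite order to *Fos* and *Junb*. The log2 difference of 0.93 (SE 0.19, 95% interval 0.52 to 1.33) was not called against a log2 fold change of 1, and passed limma's test against no change (adjusted p = 0.0015).

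*Jund* (chr8:70697739-70700616, + strand, 1 exon), the constitutively expressed JUN gene, had 186, 219 and 208 normalized counts in pan-BC, 165, 224 and 218 in ON-BC, and 183, 199 and 238 in OFF-BC. All 9 libraries lay in a common range. The log2 difference was 0.03 (SE 0.21), with a 95% interval of -0.41 to 0.46.

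*Nr4a1* (chr15:101266846-101274795, + strand, 7 exons) had the lowest limma adjusted p of the 10 genes. Its normalized counts were 1899, 732 and 2375 in pan-BC, 652, 2984 and 2349 in ON-BC, and 72.7, 62.5 and 161 in OFF-BC. Every OFF-BC library lay below every single-sorted one, and the median of the 6 was 29.2 times that of the 3. The log2 difference was -4.11 (SE 0.42, limma adjusted p = 4.7e-05). It was -4.19 (SE 0.49, adjusted p = 0.00013) against ON-BC and -4.03 (SE 0.49, adjusted p = 0.00048) against pan-BC.

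*Egr1* (chr18:34861207-34864956, + strand, 2 exons), a factor used as a marker of recent neuronal activity, had 1650, 282.5 and 1801 normalized counts in pan-BC and 247, 3677 and 776 in ON-BC. In OFF-BC it had 171, 161 and 139. All OFF-BC libraries lay below all single-sorted ones, but the single-sorted libraries themselves ranged over more than an order of magnitude. The log2 difference of -2.54 (SE 0.67, 95% interval -3.95 to -1.13) was not called (limma adjusted p = 0.23). It was called by edgeR's test against the same threshold (adjusted p = 0.017), and by limma without pan-BC replicate 2 (0.044) or without ON-BC replicate 1 (0.033), the lowest library of each population.

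*Ier2* (chr8:84661331-84662852, - strand, 1 exon) had 337, 206 and 334 normalized counts in pan-BC, 299, 504 and 478 in ON-BC, and 165, 153 and 137 in OFF-BC. The ranges did not overlap, but the difference was smaller than for *Fos*, at -1.18 on the log2 scale (SE 0.21, 95% interval -1.62 to -0.75), and was not called against a log2 fold change of 1. It passed limma's test against no change (adjusted p = 0.00031).

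*Atf3* (chr1:191170296-191183333, - strand) had 61.7, 50.4 and 53.8 normalized counts in pan-BC, 65.0, 66.6 and 140.6 in ON-BC, and 24.6, 33.6 and 56.3 in OFF-BC. OFF-BC replicate 3 lay within the single-sorted range and the other two below it. The log2 difference of -0.91 (SE 0.28, 95% interval -1.50 to -0.31) was not called, and passed limma's test against no change (adjusted p = 0.022).

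*Egr1*, *Fos*, *Nr4a1* and *Junb* varied widely between single-sorted bipolar libraries of a population. In ON-BC, the highest library exceeded the lowest 14.9-fold for *Egr1*, 5.72-fold for *Fos*, 4.58-fold for *Nr4a1* and 2.55-fold for *Junb*, where the median over the 10782 genes with a mean of at least 50 normalized counts was 1.22-fold. The share of those genes with a larger ratio was 0.0927%, 0.176%, 0.241% and 0.983%. In pan-BC the ratio was 6.38-fold for *Egr1*, 3.46-fold for *Junb*, 3.24-fold for *Nr4a1* and 1.85-fold for *Fos*, against a median of 1.18-fold over 11026 genes. *Ier2*, also abundant, varied less, 1.68-fold in ON-BC and 1.64-fold in pan-BC. *Fosl2*, at few reads, varied 3.80-fold and 3.56-fold. In OFF-BC the ratio was 1.23-fold for both *Fos* and *Egr1*, against a median of 1.28-fold over 10928 genes. *Nr4a1* reached 2.58-fold there, and *Junb*, with a mean below 50, 2.03-fold. Blue cones, also single-sorted, had 1.35-fold for *Fos*, 1.39-fold for *Nr4a1*, 1.62-fold for *Egr1* and 1.66-fold for *Junb*, against a median of 1.28-fold. Rods, single-sorted too, had 3.66-fold for *Egr1*, 2.2-fold for *Fos*, 1.46-fold for *Junb* and 1.24-fold for *Nr4a1*, against a median of 1.2-fold.

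The same libraries stood at the ends for many members. ON-BC replicate 1 was the lowest ON-BC library for all 10 genes, and ON-BC replicate 2 the highest for 7. Pan-BC replicate 2 was the lowest pan-BC library for 8 of 10. Counted reads of these 3 libraries were 14974898, 15322523 and 15569580, so their depths were alike. ON-BC replicate 1 and OFF-BC replicate 1 carry the same postnatal day, 43, as do replicates 2 (day 48) and 3 (day 42), and the order of the ON-BC libraries was not found among the OFF-BC libraries, where each replicate was lowest for at least 2 members.

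The photoreceptor libraries, all single-sorted, placed the bipolar values in a wider range. Rods had as little *Nr4a1* as OFF-BC, with 89.3, 111 and 96.2 normalized counts, and as little *Egr1*, with 225, 61.5 and 99.4. Their *Fos* counts of 636, 290 and 400 overlapped those of OFF-BC. Blue cones had 1646, 2049 and 2283 normalized counts of *Nr4a1* and 3236, 2931 and 4758 of *Egr1*, which put them with or above the single-sorted bipolar cells. Between rods and blue cones, *Egr1* (log2 difference -4.99, SE 0.77, limma adjusted p = 0.00047) and *Nr4a1* (-4.31, SE 0.49, adjusted p = 3e-05) were the 2 of 10 members called, both lower in rods, where 15.9% of all genes were called. Against no change, 6 members passed limma's test, where 57.5% of all genes did.

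Pan-BC differed from rods at 8 of the 10 members, where 43.6% of all genes were called, and 8 passed the test against no change, where 79.5% did. *Fosl2* could be tested only through its bipolar reads, here and against blue cones. *Nr4a1* (log2 difference 3.91), *Egr1* (3.07), *Fos* (2.14), *Jund* (1.97) and *Fosl2* were higher in pan-BC, and *Atf3* (-2.61), *Fosb* (-1.85) and *Jun* (-1.58) were lower. Between 5 and 7 of these calls remained when 1 library was left out, *Fosl2*, *Jund*, *Nr4a1* and *Atf3* each time. Those of *Fosb* (log2 difference -1.51, limma adjusted p = 0.22) and *Jun* (-1.23, adjusted p = 0.34) were lost when values were scaled to the library total, which puts the median gene at 0.549. That of *Fos* was lost with DESeq2 (adjusted p = 0.062). From blue cones, pan-BC differed at 4 members, where 36.3% of all genes were called, and 8 passed the test against no change, where 76.3% did. *Fosl2* was higher in pan-BC, and *Atf3* (-3.18), *Jun* (-2.78) and *Fosb* (-2.51) were lower. With the deposited size factors the median gene stood 0.211 higher in pan-BC than in rods on the log2 scale and 0.158 higher than in blue cones. Cell class, study and age differ together here and cannot be told apart.

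For *Jun*, the order from high to low was blue cone (1135, 1164 and 1448 normalized counts), rod (577, 473 and 570), OFF-BC, pan-BC and ON-BC, and only pan-BC and ON-BC overlapped among neighbors. *Atf3* and *Fosb* had the same order of classes, with both photoreceptor types above all bipolar cells. *Atf3* had 358, 589 and 622 normalized counts in blue cones and 367, 361 and 304 in rods, and *Fosb* had 121, 112 and 118 in blue cones and 56.3, 77.9 and 90.8 in rods. *Jund* alone had both photoreceptor types below all bipolar cells, with 56.4, 87.3 and 94.0 in blue cones and 49.5, 67.6 and 40.0 in rods. *Ier2* differed little, with 345, 436 and 622 in blue cones and 336, 307 and 335 in rods, and its OFF-BC libraries were the lowest of the 15. *Junb* had 272, 407 and 452 in blue cones and 102, 69.7 and 92.9 in rods, and its OFF-BC libraries were again below all others. *Fosl2* was nearly absent from photoreceptors as from OFF-BC, with 2 reads over the 3 rod libraries and 4 over the 3 blue cone libraries, so no fold between these is given. Its level in pan-BC was 36.8 times that in rods (exact 95% interval 9.81 to 310) and 25.1 times that in blue cones (9.37 to 94.7).

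**Figure D3:**
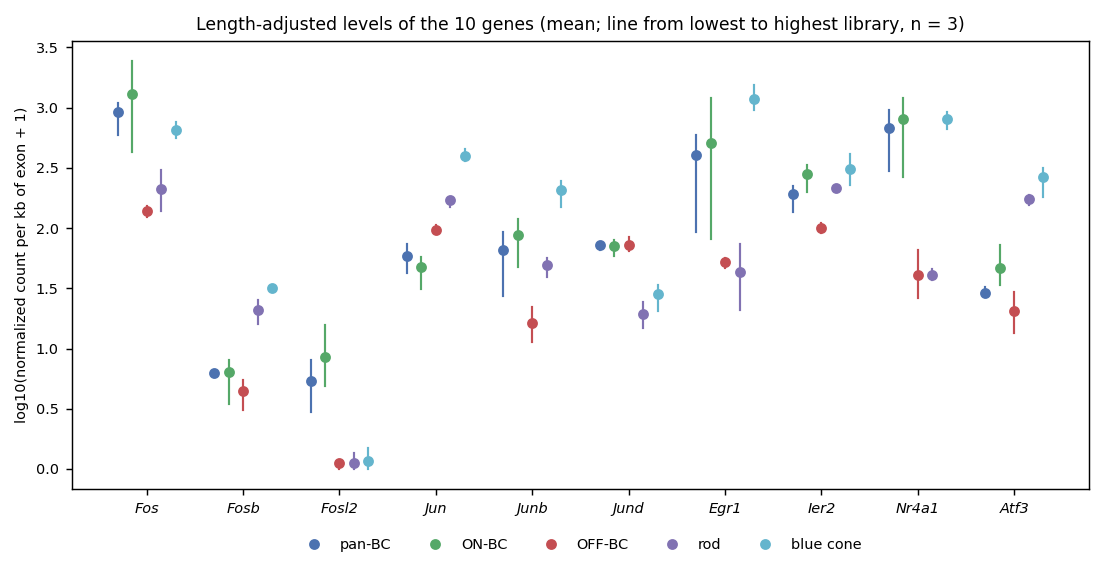
Levels per kb of exon, on the y axis as log10(normalized count per kb + 1), with a point for the mean of the 3 libraries of each population and a line from the lowest to the highest library. *Fos* stands highest in pan-BC and ON-BC, *Egr1* in blue cones, and *Fosl2* lies near 0 outside pan-BC and ON-BC.

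Levels of different genes were compared per kb of exon. In pan-BC, *Fos* was the most abundant of the 10 at 913.5 ± 282 normalized counts per kb (SD, n = 3), followed by *Nr4a1* at 674 ± 341, *Egr1* at 405 ± 272 and *Ier2* at 192 ± 49.3. *Fosl2* and *Fosb* were the least abundant, at 4.41 ± 2.56 and 5.22 ± 0.367 per kb. In OFF-BC the order differed, with *Fos* at 138.6 ± 14.6 per kb, *Ier2* at 99.6 ± 9.41, *Jun* at 96.0 ± 8.38 and *Jund* at 71.9 ± 9.83 above *Egr1* at 51.1 ± 5.32 and *Nr4a1* at 39.9 ± 21.9. Even at its lowest, then, *Fos* was the most abundant member in OFF-BC per unit length. In rods, *Ier2* (214 ± 10.6 per kb), *Fos* (210 ± 84.0), *Atf3* (174 ± 17.6) and *Jun* (169 ± 18.2) were nearly level. In blue cones, *Egr1* was highest at 1185 ± 319 per kb.

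Other genes of the same families and pathways were examined by lists. Of 5 other EGR and NR4A genes, 3 were tested and 2 were called lower in OFF-BC than in single-sorted bipolar cells. *Egr3* had 19.2 to 58.7 normalized counts in the 6 single-sorted libraries and 3 reads in all over the 3 OFF-BC libraries, a ratio of 34.7 (exact 95% interval 11.7 to 170). Its log2 difference was -4.34 (SE 0.47, limma adjusted p = 6.6e-05). *Egr2* had 1 read in OFF-BC against 200 in the single-sorted libraries, a ratio of 92.2 (16.4 to 3659), but pan-BC replicate 2 held 1 read, inside the OFF-BC range (adjusted p = 0.029). The *Egr2* call was lost with a pseudocount of 5 (adjusted p = 0.14), with bipolar libraries only (0.053), and without pan-BC replicate 1 (0.071) or 3 (0.069), ON-BC replicate 2 (0.066) or 3 (0.069), or OFF-BC replicate 1 (0.14) or 3 (0.11), leaving 1 of the 3. Both genes passed the filter through the groups where they are high. *Nr4a2* had 40.3 to 53.8 normalized counts in pan-BC, 33.0 to 62.7 in ON-BC and 13.4 to 38.6 in OFF-BC, and was not called.

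Of 14 other AP-1 and related bZIP genes, such as *Atf2*, *Atf4*, *Jdp2* and *Bach1*, 9 were tested and 0 were called by limma in this comparison, and their median log2 difference was 0.02. Of 27 genes of the kinases and factors that act upstream, such as *Srf*, *Creb1* and *Elk1*, 27 were tested and 0 were called, with a median of -0.07. Both medians were close to the 0.013 of all genes.

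Among 38 other early response genes, 29 were tested, 6 were called lower in OFF-BC and 1 higher. *Gadd45g*, a growth arrest and DNA damage-inducible gene, had 1690 to 2498 normalized counts in the single-sorted libraries and 183, 211.5 and 391 in OFF-BC (log2 difference -3.10, SE 0.24, limma adjusted p = 8.6e-06). *Csrnp1*, an AXIN1-induced nuclear factor, had 44.1 to 112 against 5.59, 13.2 and 11.0 (-2.82, SE 0.46, adjusted p = 0.011), a call lost without OFF-BC replicate 1 (adjusted p = 0.1). Against ON-BC, *Sik1*, a kinase induced by cAMP, was also among the largest differences (-3.05, SE 0.47, adjusted p = 0.0054). The gene called higher was *Irf1*, an interferon-responsive factor, with 704, 541 and 474.5 normalized counts in OFF-BC and 43.3 to 143 in the single-sorted libraries (2.94, SE 0.40, adjusted p = 0.0024). The other 22 tested genes were not called, and the median of the list was -0.45.

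Genes of neuronal activity went both ways, with 1 called lower, 2 called higher and 9 tested of 12. *Npas4*, a factor induced selectively by neuronal depolarization, had 2 reads over the OFF-BC libraries and 147 over the single-sorted ones, a ratio of 33.9 (exact 95% interval 9.21 to 282, limma adjusted p = 0.00015), and it too passed the filter through the groups where it is high. *Nptx2*, a secreted pentraxin, had 237, 286 and 285 normalized counts in OFF-BC against 31.0 to 64.6 (log2 difference 2.44, SE 0.30, adjusted p = 0.0028). *Inhba*, an activin subunit, had 49.2, 19.2 and 37.5 against 0 to 7.06 (3.37, SE 0.66, adjusted p = 0.023), a call lost without pan-BC replicate 3 (adjusted p = 0.055), ON-BC replicate 2 (0.053), or OFF-BC replicate 1 (0.15) or 3 (0.09). *Inhba* in turn passed the filter through OFF-BC, where it is high, so it could be called higher only.

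No heat shock or integrated stress gene was called lower. Of 14 tested heat shock genes, 1 was called, the co-chaperone *Bag3*, with 50.3 to 60.7 normalized counts in OFF-BC and 0 to 27.2 in the single-sorted libraries (log2 difference 3.32, SE 0.55, limma adjusted p = 0.007). Of 13 tested integrated stress genes, 1 was called, the pseudokinase *Trib3*, with 87.7 to 147.5 against 4.26 to 26.7 (3.41, SE 0.47, adjusted p = 0.0015). The medians of the lists were 0.29 and 0.09.

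**Figure D4:**
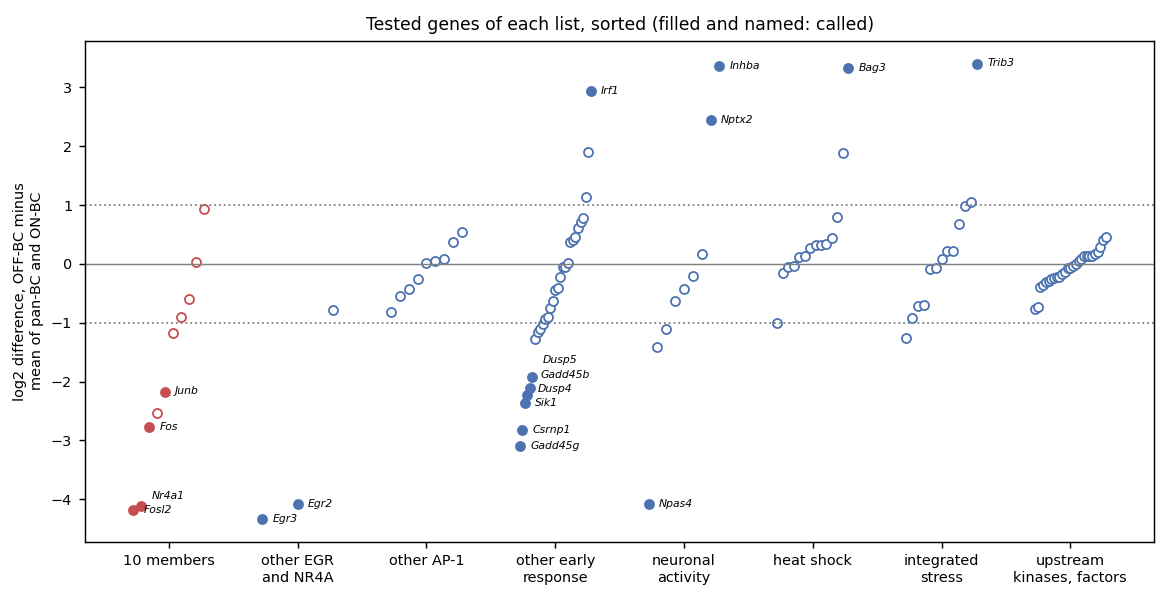
Log2 differences of OFF-BC minus the mean of pan-BC and ON-BC for the tested genes of each list, sorted within the list along the x axis, with dotted lines at a log2 fold change of 1 in either direction. Filled, named points were called, and they lie below 0 for the 10 members and the other EGR and NR4A genes and on both sides for early response and neuronal activity genes.

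The genes whose profiles were most like that of *Fos* were named by Pearson's r of log2 values, as a description. Over the 9 bipolar libraries and 11028 genes with a mean of at least 50 normalized counts, they were *Pln* (0.980), *Ackr3* (0.972), *Nr4a1* (0.968), *Osbpl11* (0.965), *Nfatc2* (0.963), *Gnpat* (0.959), *Lamc1* (0.956), *Dusp1* (0.956), *Zfr2* (0.955) and *Adcy2* (0.955). Of the other members, *Egr1* (0.933) ranked 26, *Ier2* (0.929) ranked 31 and *Junb* (0.909) ranked 120, while *Atf3* (0.631), *Jund* (0.150) and *Jun* (-0.529) were farther away. *Dusp1*, a phosphatase that switches off MAP kinases and itself an immediate early gene, had 479, 383 and 597 normalized counts in pan-BC, 289, 664 and 612.5 in ON-BC, and 257, 183 and 167 in OFF-BC. The gap between OFF-BC and the other libraries enters each of these values. Over all 15 libraries and 11190 genes, *Nr4a1* (0.921) was nearest, followed by *Ppap2b* (0.883), *Chtf18* (0.867), *Ednrb* (0.866), *Cnst* (0.863), *Disp1* (0.858), *Rexo2* (0.854), *Msn* (0.849), *Spata13* (0.847) and *Rbp4* (0.838).

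Markers of other retinal cells were summed in each library, since their RNA could be carried into a sort. The 10 rod markers summed to 41485 to 50088 normalized counts in pan-BC, 27299 to 32446 in ON-BC and 8420 to 25430 in OFF-BC, and 7 of 10 were called lower in OFF-BC. Rods themselves held less *Fos*, *Fosl2*, *Egr1* and *Nr4a1* than pan-BC, as given above. The 9 cone markers summed to 120636 to 149861 in pan-BC, 88848 to 114903 in ON-BC, and 50823, 40726 and 125106 in OFF-BC, so OFF-BC replicate 3 stood apart, and *Opn1sw* reached 55813 there. Most of the sum in pan-BC and ON-BC was *Gnb3*, with 74982 to 108739 normalized counts there and 8977 to 18240 in OFF-BC. The paper describes *Gnb3* as expressed in bipolar cells as well as cones, so the sum does not follow cone RNA alone. In the pooled comparison 3 of 9 cone markers were called, *Gngt2* (log2 difference 2.38) and *Gnat2* (1.63) higher and *Gnb3* (-2.67) lower in OFF-BC. All cone markers other than *Gnb3* had positive log2 differences in this comparison, most of them not called. Against pan-BC, 1 of 9 was called, lower in OFF-BC, and the median log2 difference was 0.22. Against ON-BC, 9 of 9 were called, 8 of them higher in OFF-BC. Blue cones held more *Egr1* than OFF-BC and about as much *Nr4a1* as ON-BC. Without OFF-BC replicate 3, the same 4 members were called in the pooled comparison and against ON-BC.

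Muller glia markers summed to 6657 to 9156 normalized counts in the single-sorted bipolar libraries and 9586 to 14337 in OFF-BC, where 1 of 10 was called, *Sox9* (log2 difference 3.95). The other Muller glia markers went both ways, most of them lower in OFF-BC, from -1.19 for *Aqp4* to 1.47 for *Slc1a3*. Microglia markers summed to 245.6 to 331.6 and 507.4 to 621.1, and 1 of 8 tested was called, *Csf1r* (2.65). Amacrine markers summed to 332.4 to 608.3 and 919.8 to 1102, with *Slc6a9* called (1.44). The calls of *Csf1r* and *Slc6a9* were lost without pan-BC replicate 3 or without OFF-BC replicate 2 or 3, among others. Ganglion cell markers summed to 279.6 to 408.6 and 62.59 to 125.8, with *Nefl* called (-3.68), and horizontal cell markers to 3381 to 4062 and 1215 to 1350, with 0 of 3 called. Endothelial and astrocyte markers stayed at or below 145.6 and 58.5, with 0 called, *Cdh5* at 0 in all OFF-BC libraries and *Pax2* at 0 in all pan-BC and ON-BC libraries. The bipolar markers also differed, 7 of 12 being called, with *Isl1* (-5.84) and *Prkca* (-5.42) lower and 2 others higher in OFF-BC. The part of these other cells in the members' values was not tested.

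Chromatin accessibility was measured by ATAC-seq, in which a transposase cuts open DNA. Pan-BC, ON-BC and OFF-BC had 2 libraries each, at days 42 to 46, all labeled *Otx2*-GFP+/-; *Grm6*-YFP+/+, with 4498372 to 12345845 counted reads. A promoter region is a 200 bp region centered within 1000 bp upstream to 100 bp downstream of a RefSeq start, and 14 were found at 9 of the members, with *Jund* lacking one. Of these, 0 were called by limma between OFF-BC and ON-BC, and 0 by edgeR or DESeq2 against the same threshold, where limma called 7.39% of 108448 regions. Their median log2 difference, OFF-BC minus ON-BC, was -0.34, from -1.02 to 0.37, while that of all regions was -0.15. Both OFF-BC libraries lay below both ON-BC libraries at 8 of the 14, against 36.7% of all regions, and 0 lay above.

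Tested against no change, 4 of the 14 promoter regions were lower in OFF-BC, where 14.3% of all regions were. The *Nr4a1* region, which covers most of the *Nr4a1* sequence printed above and is centered at -114 bp from the start, had ON-BC normalized counts of 635 and 533, OFF-BC counts of 274.8 and 385.5 and pan-BC counts of 695 and 493 (log2 difference -0.84, SE 0.18, limma adjusted p = 0.0023). The *Fos* region centered at -335 bp, which holds the CArG box and the upper CRE cores, had ON-BC counts of 299 and 217, OFF-BC counts of 144 and 153 and pan-BC counts of 242 and 171 (-0.77, SE 0.21, adjusted p = 0.011). A region at -64 bp of *Egr1* had 340 and 256 in ON-BC against 205 and 204 in OFF-BC (-0.53, SE 0.17, adjusted p = 0.028). The *Fosl2* region had 115 and 67.3 in ON-BC against 45.8 and 39.9 in OFF-BC (-1.02, SE 0.35, adjusted p = 0.037). These differences were smaller than those of the transcripts, and the regions of *Jun* and *Ier2* nearest the start, at 0.17 and 0.24, were not lower.

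**Figure D5:**
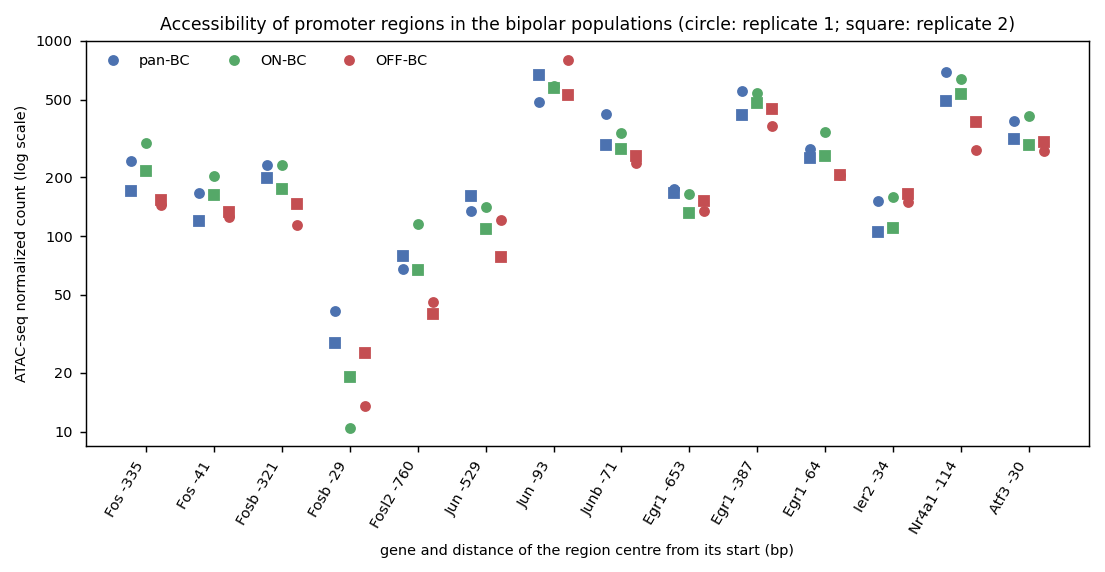
ATAC-seq normalized counts on a log scale at the 14 promoter regions, labeled by gene and distance of the region's center from the start in bp, with 2 libraries each of pan-BC, ON-BC and OFF-BC. OFF-BC lie below both ON-BC libraries at 8 regions, among them those of *Nr4a1* and *Fosl2*, and overlap them at the other 6.

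Outside promoters, 70 regions had a member's start as the nearest one, and 1 of them was called, where limma called 7.39% of all regions. It lay between genes, centered at -32143 bp from the *Fos* start, at chr12:85441647-85441846 (mm10), with ON-BC normalized counts of 113.5 and 215, OFF-BC counts of 8.08 and 15.6 and pan-BC counts of 133 and 101 (log2 difference -3.68, SE 0.40, limma adjusted p = 0.00035). In rods it had 52.2 and 57.6, and in blue cones 7.77 and 6.50. A region in an intron of *Fos*, 752 bp into the gene, had 137 and 168 in ON-BC against 37.7 and 56.5 in OFF-BC (-1.70, SE 0.26, adjusted p = 0.081). Other uncalled regions near the threshold were higher in OFF-BC. One centered at 13617 bp from the *Jun* start had 8.96 and 0 in ON-BC against 29.6 and 30.2 in OFF-BC (3.29, SE 0.77, adjusted p = 0.054). Another, at -9313 bp from the *Fos* start, had 8.96 and 8.79 against 35.0 and 54.5 (2.18, SE 0.43, adjusted p = 0.075). The nearest start does not show which gene a region acts on.

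Peaks that MACS2 had called in single libraries were present at the promoters of 9 members, all but *Jund*, in each of the 6 bipolar libraries, whether single-sorted or double-sorted. Green cones from *Opn1mw*-GFP mice at day 56 gave the single cell type profiled after both kinds of sort, with peaks in 2 single-sorted and 2 double-sorted libraries. The fold enrichment of the strongest promoter peak of *Nr4a1* was 19.6 and 17.8 in single-sorted and 20.3 and 16.2 in double-sorted green cones. That of *Fos* was 7.42 and 5.99 against 7.11 and 5.86, and that of *Junb* was 12.1 and 8.92 against 10.7 and 8.77. The ranges of the sorts overlapped for these 3 genes and for *Egr1*, *Ier2* and *Atf3*. They did not for *Fosb*, with 8.81 and 6.27 after 1 sort and 5.32 and 6.05 after 2, for *Jun*, with 13.0 and 12.2 against 13.6 and 13.6, and for *Fosl2*, with 6.59 and 7.04 against 5.56 and no peak in the last library. That library had the fewest peaks, 29410, where the other three had 38506 to 50585. With 2 libraries of each sort, the difference between sorts in green cones was not tested. In bipolar cells, *Nr4a1* peaks had an enrichment of 23.9 and 24.2 in ON-BC against 21.1 and 20.5 in OFF-BC. Among these samples green cones had ATAC-seq libraries only, so their transcripts could not be compared between sorts.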

How the data were processed

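RNA-seq and ATAC-seq had been made from sorted cells. Per the submitters' processing notes and the study's methods, the authors aligned RNA-seq reads to mm10 with STAR (2.7.0d) and counted them on genes with HTSeq (1.9), with cDNA from a kit that does not mark strand. ATAC-seq reads were aligned with Bowtie2 (2.2.5) and filtered with SAMtools (1.3) and Picard (2.19.0), keeping nucleosome-free fragments, and the authors called peaks in each library with MACS2 (2.1.1) and counted reads in 200 bp regions. Versions are those of the notes, and the methods give others for Bowtie2 and SAMtools. The deposited tables hold a signal, the count divided by 1 size factor per library, and all 230384 RNA values and 1212862 ATAC values above 0 were whole reads (within 0.01) once this factor was removed. The deposited peak lists hold, per peak, a score, a ratio (the fold enrichment) and −log10 of p and q values, as MACS2 gave them.

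Tests had been planned for either unit. Since the values are normalized, limma (3.58.1) was run in R (4.3.3) on log2(value + 1), all 15 RNA or 12 ATAC libraries in 1 fit, with treat against a log2 fold change of 1 and Benjamini-Hochberg adjustment over all 14024 genes or 108448 regions that passed filterByExpr of edgeR, run on these reads. The 1 added understates changes of low genes. Alternatives were edgeR (4.0.16) and DESeq2 (1.42.0) on recovered reads, a test against no change, pseudocounts of 0.5 and 5, no filter, TMM and library-total scaling, bipolar libraries only, a replicate block and leaving out each library. Scripts were tested on simulated data. The 10 members and all lists were chosen with earlier results of these data known. Named were all members, up to 3 called genes of each list with the largest change in the pooled comparison and against ON-BC, the 10 genes most like *Fos* over 9 and over 15 libraries, and *Nrl*, except that 1 gene among the cell type markers is not reported here. Other genes were named as examples after their values were seen, as were the regions outside promoters. Gene positions are from RefSeq on GRCm38, the assembly called mm10, and no other RefSeq exon overlapped those of the members. Intervals from reads cover counting error only.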

Additional observations from a re-analysis of the deposited data

Results flagged for a closer look

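In the 6 single-sorted bipolar libraries taken as 1 group, the highest library stood far from the rest for 2 of the 10 members. For *Fos*, ON-BC replicate 2 had 5116 normalized counts and the next library 2296, a gap of 0.668 of the whole range. For *Atf3*, ON-BC replicate 3 had 140.6 and the next library 66.6, a gap of 0.82 of the range. Both gaps are above Dixon's 95% critical value for 6 libraries, which chance passes in about 5% of groups of normally distributed values. The gaps were taken on untransformed normalized counts, so this rate may not hold for them. Log values and populations of 3 libraries were not examined in this way. The 6 libraries hold 2 populations.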

How the results depend on the processing

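*Fos*, *Fosl2* and *Nr4a1* were called lower in OFF-BC in every alternative, both in the pooled comparison and against ON-BC. With next to no reads outside pan-BC and ON-BC, *Fosl2* could be called in this direction only. Of the 10 members, limma's and edgeR's tests against no change each gave 8 calls in the pooled comparison and 8 against ON-BC, 7 against pan-BC, 8 between pan-BC and blue cones, and 6 between rods and blue cones, and limma's gave 4 promoter regions. Leaving out 1 library gave 3 to 5 members in the pooled comparison and against ON-BC, 1 to 3 against pan-BC (1, *Nr4a1*, without pan-BC replicate 3 or OFF-BC replicate 2), 0 between ON-BC and pan-BC, 5 to 7 between pan-BC and rods (5 without pan-BC replicate 1 or 3 or rod replicate 2 or 3), 4 to 5 between pan-BC and blue cones, 2 to 3 between rods and blue cones, and 0 promoter regions. The call of *Junb* was lost with a pseudocount of 0.5 (adjusted p = 0.055) or 5 (0.059), without a filter (0.068) and scaled to the library total (0.059). The ATAC-seq calls over all regions fell from 8010 to between 4175 and 6118 without 1 library, and were 12927 by edgeR and 4791 by DESeq2.

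Same-numbered ON-BC and OFF-BC libraries share a postnatal day, and the labels do not say whether they came from the same animals. Deviations of same-numbered libraries correlated at -0.076, 0.222 and -0.065, and those of differently numbered ones at -0.147 to 0.212. With 3 libraries a group, these values cannot show whether the libraries were paired. With the replicate number as a block, 4 members were called in the pooled comparison, 4 against ON-BC and 0 promoter regions, as without it.

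Signs turned only for differences that were not called. Between ON-BC and pan-BC, edgeR gave 0.07 for *Fosb* and 0.35 for *Egr1*, and DESeq2 0.06 and 0.33, all positive where limma was negative. Leaving out 1 library moved this difference from -0.43 to 0.83 for *Fos*, -0.32 to 0.39 for *Fosb*, -0.03 to 0.91 for *Junb*, -0.10 to 0.12 for *Jund*, -1.11 to 0.84 for *Egr1* and -0.36 to 0.83 for *Nr4a1*. For *Jund* it ranged from -0.08 to 0.11 in the pooled comparison, -0.10 to 0.12 against ON-BC and -0.09 to 0.10 against pan-BC, where TMM gave -0.0008. Between pan-BC and rods, *Ier2* was 0.16 scaled to the library total and -0.31 to 0.04 without 1 library, and *Junb* -0.08 to 0.80. Between pan-BC and blue cones, *Nr4a1* ranged from -0.74 to 0.10. The cause was not tested in any of these.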
